A study of Sus scrofa with 6 samples.

Results

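Enzymes that add methyl groups to histone lysines (methyltransferases, or writers) and enzymes that remove them (demethylases, or erasers) were followed in the stored mRNA of pig oocytes matured with malathion or without it. Members were chosen by symbol alone, as every gene whose pig symbol begins with KDM, KMT, SMYD, NSD or EHMT and a digit, or with SETD or SUV39H. The name table gave 45 such identifiers, and 44 of the 25880 genes in the count files were among them, 29 writers and 15 erasers. The identifier of SETD1B was the 1 not found in the files, and KMT2D, KDM2B and KDM5C were matched to no identifier and were not analysed here.

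The libraries came from Sus scrofa MII oocytes, which are arrested in metaphase of meiosis II and ready for fertilization, 3 from oocytes given malathion at 1 mM during in vitro maturation and 3 from control oocytes. Malathion, an organophosphate insecticide that inhibits acetylcholinesterase, was diluted from a stock in DMSO, and the labels do not say whether control medium received DMSO. Ovaries came from a slaughterhouse, so oocytes of many animals may be mixed, and neither the number of oocytes in a library nor what a replicate number marks is given in the sources used here. The p-values below therefore measure the spread between these libraries, which may be technical.

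Histone methylation marks chromatin as active or silent. Methylation of lysine 4 of histone H3 (H3K4) accompanies active promoters and enhancers, that of H3K36 transcribed gene bodies, that of H3K9 heterochromatin and silenced repeats, that of H3K27 Polycomb-silenced genes, and that of H4K20 compacted chromatin. In mouse oocytes these marks are laid down during growth, several writers and erasers are needed there for fertility, and their stored mRNA also supplies the early embryo. An MII oocyte is nearly silent in transcription, so a count reflects mRNA stored and not yet degraded.

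Levels are given as CPM, the count of a gene scaled to a fixed sum of gene counts in each library. CPM is not divided by transcript length, for which the files hold no value, so the order of genes by CPM is an order by reads, in which long transcripts stand higher than their number of molecules would put them. Gene counts summed to between 25816040 and 42312341 per library, and a gene with 0 counts may still have been present at up to 0.0709 to 0.116 CPM (3 counts of the library). These limits cover counting error only. Malathion replicate 3 and control replicate 3 stood apart from the other libraries. They detected 8492 and 8344 genes, against 12211 to 14707 in the other 4, and the 9 oocyte markers found (GDF9, BTG4, ZP3 and others) summed to 4409 and 4189 CPM there, against 28858 to 80957 CPM. Not every marker followed the sum: in malathion replicate 3, MOS had 1458 CPM and ZP2 had 2158 CPM, where the other 5 libraries had at most 388 and 594 CPM. All 9 were above 0 in each library. Of 10 cumulus and granulosa markers, whose cells surround the oocyte, the sum was 695, 722 and 66.1 CPM in malathion and 651, 425 and 36.1 CPM in control replicates 1, 2 and 3, with VCAN and KITLG the main contributors. AMH was at 0 in all 6 libraries, and neither PTX3 nor FSHR exceeded 0.540 CPM. CYP11A1 stood at 18.2, 81.6 and 0.0236 CPM in malathion and 22.1, 0.59 and 0.713 CPM in control replicates 1, 2 and 3. STAR and INHBA were also highest in malathion replicate 2, at 24.99 and 17.4 CPM, against at most 6.08 and 12.1 CPM elsewhere. VCAN, KITLG and TNFAIP6 were highest in malathion replicate 1 and FSHR in control replicate 1. The 4 markers of blood, endothelium and theca summed to 13.1 CPM at most. In bulk libraries, fewer cells of a type and less RNA per cell cannot be told apart.

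By reads, KMT2E led the list and a handful of genes held most of it. The mean over the 6 libraries was 716 CPM for KMT2E, 267 CPM for KMT2C, 243 CPM for KDM5A, 213 CPM for KMT5A and 184 CPM for SUV39H2. These 5 were the members with a mean of at least 100 CPM, 17 members had at least 10 CPM and 27 had less. In malathion and control replicates 1 and 2 the 3 leading members held 55.0% to 65.0% of all reads of the list. KMT2E and SUV39H2 were the members that ranked among the leading 4 in each of the 6 libraries. The means of KMT5A and SETD5 rest on control replicate 3, which held 88.5% and 80.5% of their summed CPM. That library also held 54.4% of the summed CPM of KMT2E, whose mean over the other 5 libraries was 392 CPM. SMYD2 owed 90.7% of its summed CPM to malathion replicate 3.

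**Figure D1:**
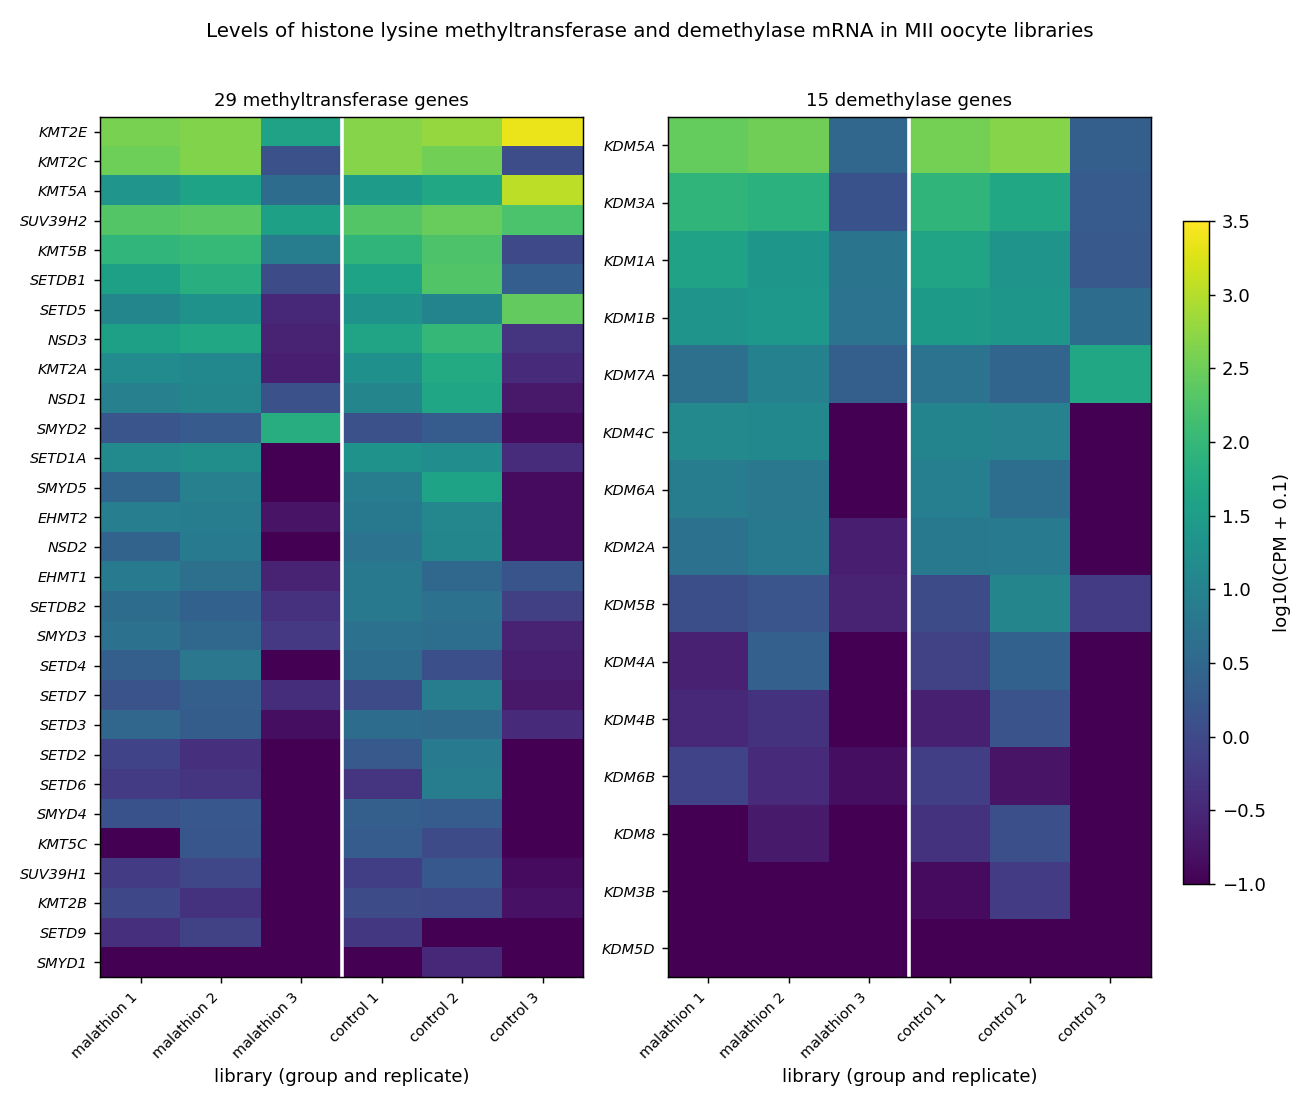
Heat map of log10(CPM + 0.1) for 29 methyltransferase genes (left) and 15 demethylase genes (right), with 1 column per library and genes ordered by mean CPM within each class. Both replicate 3 columns are dark over most of their length, apart from SMYD2, KMT2E and SUV39H2 in malathion replicate 3 and KMT2E, KMT5A, SUV39H2, SETD5 and KDM7A in control replicate 3.

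The pattern of the list was shared by malathion replicates 1 and 2 and control replicate 1 and was moderately different in control replicate 2. It departed furthest in both replicate 3 libraries, less so by rank than by level. Across the 44 genes, Pearson r of log2(CPM + 1) was 0.989 between malathion replicate 1 and control replicate 1 and 0.976 between malathion replicates 1 and 2. For control replicate 2 against these 3 libraries, r lay between 0.912 and 0.927. Between the replicate 3 libraries r was 0.582, and between either of them and any of the other 4 it was 0.470 to 0.583. Spearman's rho, taken on ranks, was higher for the same comparisons, at 0.799 and at 0.640 to 0.784. Genes are not independent replicates, and all values of a library share its depth and amplification, so these figures describe the libraries.

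At least 1 count was found for 39, 41 and 25 members in malathion replicates 1, 2 and 3, and for 42, 42 and 29 members in control replicates 1, 2 and 3. After thinning each library at random to 25816040 counts, the numbers were 39, 41 and 23 in malathion and 42, 42 and 28 in control libraries. Malathion replicate 3 was the deepest library and detected the fewest members. There, 19 members had 0 counts, against 15 in control replicate 3, and 13 were at 0 in both. KDM5D, a Y-linked H3K4 demethylase, was at 0 in all 6 libraries.

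Among H3K4 writers, KMT2E and KMT2C gave the most reads, and KMT2B, which is needed for H3K4 methylation in mouse oocytes, gave few. KMT2E (ENSSSCG00000029082), an MLL-family protein that binds H3K4me3 and has little enzyme activity of its own, stood at 387, 443 and 38.8 CPM in malathion replicates 1, 2 and 3, against 489, 602 and 2338 CPM in control replicates 1, 2 and 3. All 3 malathion libraries were below all 3 control libraries, with 443 CPM next to 489 CPM at the boundary. KMT2C (ENSSSCG00000020663), which monomethylates H3K4 at enhancers, stood at 326, 445 and 1.18 CPM in malathion libraries, against 476, 349.7 and 1.05 CPM in control libraries. The groups overlapped, and the low value in each group was replicate 3. KMT2A stood at 14.6, 12.7 and 0.142 CPM in malathion and 18.2, 56.4 and 0.238 CPM in control libraries, with control replicate 2 the highest. SETD1A, the catalytic subunit of a COMPASS complex, stood at 14.4, 16.3 and 0 CPM in malathion and 20.3, 15.9 and 0.271 CPM in control libraries. KMT2B (ENSSSCG00000002895) did not exceed 0.972 CPM in any library, with 22, 10 and 0 counts in malathion and 27, 24 and 2 counts in control libraries. SETD7, a monomethyltransferase with many non-histone targets, reached 7.78 CPM in control replicate 2 and at most 2.16 CPM elsewhere, and the muscle gene SMYD1 had 6 counts in control replicate 2 and 0 elsewhere.

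Reads of H3K4 erasers came mainly from KDM5A in malathion and control replicates 1 and 2. KDM5A (ENSSSCG00000029464), which removes H3K4 trimethylation, stood at 278, 340.0 and 3.00 CPM in malathion and 362, 475 and 2.24 CPM in control libraries. Its groups overlapped only through the replicate 3 libraries. Its relative KDM5B (ENSSSCG00000010928) stood at 1.08, 1.44 and 0.165 CPM in malathion and 1.01, 11.1 and 0.543 CPM in control libraries, so control replicate 2 stood apart there too. The flavin-dependent erasers varied less. KDM1A (ENSSSCG00000003531), also called LSD1, stood at 38.8, 23.8 and 5.27 CPM in malathion and 42.0, 21.2 and 1.70 CPM in control libraries, close to each other within each replicate number 1 and 2. KDM1B (ENSSSCG00000001074), or LSD2, which in mouse oocytes is needed for the DNA methylation of imprinted genes, stood at 21.2, 25.2 and 5.03 CPM in malathion and 28.3, 24.1 and 3.80 CPM in control libraries. In malathion and control replicates 1 and 2 the values of KDM1B lay between 21.2 and 28.3 CPM.

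SUV39H2 supplied most reads of the H3K9 writers. SUV39H2 (ENSSSCG00000011048), which trimethylates H3K9 in heterochromatin, stood at 195, 223 and 36.6 CPM in malathion and 200.2, 283 and 165 CPM in control libraries. It was among the few members kept in both replicate 3 libraries, and malathion replicate 3 was its lowest. Its paralog SUV39H1 did not exceed 1.62 CPM in any library. SETDB1 (ENSSSCG00000006645), which silences retrotransposons and is needed for meiosis in mouse oocytes, stood at 35.6, 68.7 and 1.02 CPM in malathion and 41.2, 192.5 and 2.07 CPM in control libraries. Control replicate 2 was its highest library. EHMT2 (ENSSSCG00000001420), or G9a, and EHMT1 (ENSSSCG00000038437), its partner GLP, dimethylate H3K9 together. EHMT2 stood at 8.44, 7.67 and 0.0709 CPM in malathion and 6.59, 12.0 and 0.0339 CPM in control libraries. EHMT1 stood at 6.78, 4.39 and 0.165 CPM in malathion and 6.44, 3.14 and 1.36 CPM in control libraries. Values of both groups overlapped for each of these genes. SETDB2 ranged from 0.331 to 6.55 CPM over the libraries.

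H3K9 erasers were represented mainly by KDM3A in malathion and control replicates 1 and 2. KDM3A (ENSSSCG00000008221), which removes mono- and dimethylation of H3K9, stood at 89.4, 75.04 and 1.25 CPM in malathion and 86.2, 48.6 and 1.83 CPM in control libraries. KDM4C, which removes H3K9 trimethylation, stood at 13.1, 12.4 and 0 CPM in malathion and 10.7, 9.89 and 0 CPM in control libraries. Both malathion libraries with reads were above both control libraries with reads, and the replicate 3 libraries had none. KDM4A (ENSSSCG00000026449), which in mouse oocytes clears H3K9 trimethylation from broad H3K4me3 domains, stood at 0.155, 2.34 and 0 CPM in malathion and 0.684, 2.43 and 0 CPM in control libraries. KDM7A (ENSSSCG00000016501), an eraser of H3K9 and H3K27 dimethylation, stood at 4.45, 9.54 and 2.25 CPM in malathion and 5.002, 2.84 and 49.6 CPM in control libraries. The value of control replicate 3 lay above all others. KDM4B and KDM3B had at most 1.33 CPM and 0.517 CPM, in control replicate 2.

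Each of the 4 H3K36 writers had its highest CPM in control replicate 2, which was the highest library for 54.7% of all genes tested. NSD3 stood at 35.5, 48.2 and 0.165 CPM in malathion and 41.9, 97.4 and 0.373 CPM in control libraries. NSD1, like NSD3 a writer of H3K36 dimethylation, stood at 8.91, 11.4 and 1.18 CPM in malathion and 10.9, 45.4 and 0.102 CPM in control libraries. NSD2 reached 11.6 CPM in control replicate 2 and at most 7.09 CPM elsewhere. SETD2 (ENSSSCG00000011332), the writer of H3K36 trimethylation, which guides DNA methylation in mouse oocytes, had 18, 9 and 0 counts in malathion libraries, against 47, 186 and 0 counts in control libraries. In replicates 1 and 2 the malathion counts were below the control counts, and the replicate 3 libraries had none. The H3K36 eraser KDM2A lay between 4.92 and 7.01 CPM in malathion and control replicates 1 and 2, at 0.142 CPM in malathion replicate 3 and at 0 in control replicate 3. KDM8 had at most 1.14 CPM.

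The 2 erasers assigned mainly to H3K27 were low. KDM7A, which also acts on H3K27, is counted with the H3K9 erasers above. KDM6A (ENSSSCG00000012262), or UTX, stood at 7.98, 6.16 and 0 CPM in malathion and 8.74, 4.17 and 0 CPM in control libraries. KDM6B (ENSSSCG00000017962), or JMJD3, did not exceed 0.697 CPM, with 18, 7 and 2 counts in malathion and 16, 2 and 0 counts in control libraries, and it failed the filter on low counts.

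The H4K20 writers parted in the replicate 3 libraries. KMT5A (ENSSSCG00000009777), which monomethylates H4K20 and is tied to mitosis, stood at 22.2, 40.5 and 3.78 CPM in malathion and 29.9, 50.4 and 1133 CPM in control libraries. Control replicate 3 was far above every other library. KMT5B (ENSSSCG00000031459), which adds the further methyl groups, stood at 92.6, 105 and 7.85 CPM in malathion and 86.7, 173 and 0.882 CPM in control libraries, so control replicate 3 was its lowest. KMT5C, the paralog of KMT5B, had 0, 41 and 0 counts in malathion and 53, 28 and 0 counts in control libraries.

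Of the 9 remaining writers, SETD5 and SMYD2 reached their high values in 1 library each. SETD5 (ENSSSCG00000011540), a SET-domain protein whose own enzyme activity is debated, stood at 11.7, 20.3 and 0.213 CPM in malathion and 20.5, 10.6 and 262 CPM in control libraries. SMYD2 (ENSSSCG00000015583), which methylates p53 and other non-histone proteins besides histones, stood at 1.43, 1.87 and 63.6 CPM in malathion and 1.19, 1.96 and 0.0339 CPM in control libraries. Outside malathion replicate 3 it never exceeded 1.96 CPM, and control replicate 3 had 1 count. SMYD3 (ENSSSCG00000022034) stood at 4.92, 3.17 and 0.449 CPM in malathion and 4.97, 4.13 and 0.170 CPM in control libraries. SMYD5 reached 40.5 CPM in control replicate 2 and at most 8.89 CPM elsewhere, and SETD6, which methylates a subunit of NF-kappaB, 7.56 CPM there and at most 0.542 CPM elsewhere. SETD3, the actin histidine methyltransferase, SETD4, SMYD4 and SETD9 stayed at or below 5.98 CPM.

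Control replicate 2 often stood above the 3 libraries it otherwise resembled. Of the 37 members tested below, 20 had a higher CPM in control replicate 2 than in malathion replicates 1 and 2 and control replicate 1, and 8 had a lower CPM. By class, 16 of 27 writers were above and 3 below, and 4 of 10 erasers were above and 5 below. Over all 10678 genes tested, 58.0% were above and 24.6% below, and the members as a whole, at 54.1% and 21.6%, were near these shares. In the same library BTG4, an adaptor for the decay of maternal mRNA, stood at 7710 CPM, against 24612 to 44538 CPM in the other 3, and CCNB1, which encodes cyclin B1, had 563 CPM in it, where the other 3 had 2037 to 2248 CPM. The oocyte markers KPNA7, WEE2, H1-8, BMP15 and ZP2 were also lower in control replicate 2 than in the other 3, and MOS lay within their range. GDF9 and ZP3 alone went the opposite way. GDF9 had 2650 CPM in control replicate 2 beside 377 to 404 CPM in the other 3, and ZP3 998 CPM beside 348 to 417 CPM. The part of this library's state in the writers' values was not tested.

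Writers gave more reads than erasers in each library. Summed over the class, the 29 writers stood at 1186, 1486 and 156 CPM in malathion and 1490.0, 1987 and 3905 CPM in control libraries. The 15 erasers stood at 459.9, 503 and 17.2 CPM in malathion and 552, 609 and 59.7 CPM in control libraries. The Wilson 95% half-width of these sums was at most 22.5 CPM for writers and 9.29 CPM for erasers. It covers counting error of reads only, and neither amplification nor the spread between libraries. Writers exceeded erasers by a factor of 2.58, 2.95 and 9.08 in malathion and 2.70, 3.26 and 65.4 in control libraries. The factor depends on the lengths of the transcripts, which do not cancel between libraries because the genes hold different shares in each. KMT2E held 32.6% of the writers' reads in malathion replicate 1 and 59.9% in control replicate 3. Outside the replicate 3 libraries the factor varied between 2.58 and 3.26, and there the values of the groups overlapped. The group means were 4.87 ± 3.65 in malathion and 23.8 ± 36.04 in control libraries (SD, n = 3 each), and these means differed by less than the SD of the control libraries. Within each of the 3 pairs of same-numbered libraries, the malathion value was the lower one for the factor and, in CPM, for both sums. No test was made of this. For the sums the order depended on the scale. Divided by the TMM factors described below, writers stood at 556 in malathion replicate 2 and 554 in control replicate 2. Erasers stood at 188 and 170 in the same libraries. The remaining pairs kept malathion lower for both sums on that scale. Without KMT2E and KDM5A, the leading gene of each class, the factor was 4.39, 6.39 and 8.27 in malathion and 5.26, 10.3 and 27.3 in control libraries, so outside the replicate 3 libraries it then spread from 4.39 to 10.3.

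**Figure D2:**
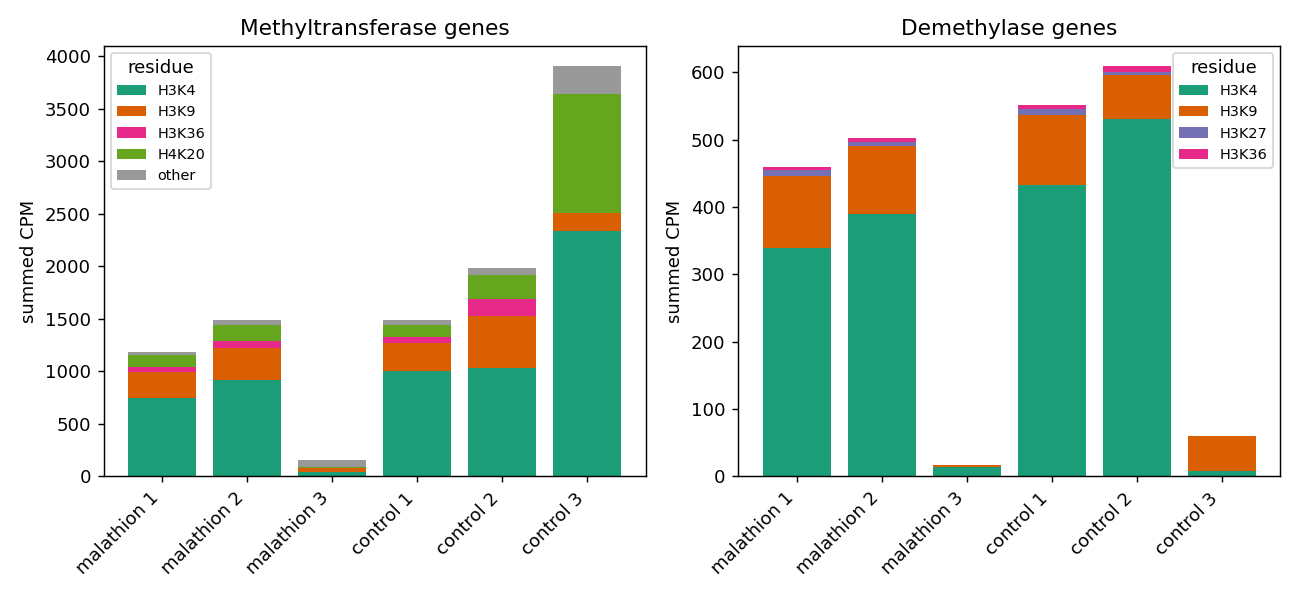
Stacked bars of summed CPM in each library for methyltransferase genes (left) and demethylase genes (right), coloured by the histone residue on which the enzymes mainly act, with separate vertical scales. In malathion replicate 3 both classes are low, at 156 and 17.2 CPM, and in control replicate 3 writers reach 3905 CPM while erasers stand at 59.7 CPM.

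By residue, the H3K4 group held most reads of both classes in malathion and control replicates 1 and 2. H3K4 writers summed to 745, 920.2 and 40.4 CPM in malathion and 1006, 1033 and 2339 CPM in control libraries. KMT2E, which has little enzyme activity of its own, gave a large part of that sum. In replicates 1 and 2 it gave 387 and 443 CPM in malathion and 489 and 602 CPM in control libraries. The order of residues was not worked out without it. H3K4 erasers summed to 339, 390.5 and 13.5 CPM in malathion and 434, 531 and 8.28 CPM in control libraries. H3K9 writers summed to 250.5, 307 and 38.1 CPM in malathion and 262, 497 and 169 CPM in control libraries, and H3K9 erasers to 107, 99.7 and 3.498 CPM in malathion and 103, 65.6 and 51.4 CPM in control libraries. Of the H3K9 erasers' sum in control replicate 3, 49.6 CPM was KDM7A. H4K20 writers summed to 115, 147 and 11.6 CPM in malathion and 118, 224 and 1133 CPM in control libraries. H3K36 writers summed to 47.8, 67.0 and 1.35 CPM in malathion and 59.6, 161 and 0.509 CPM in control libraries. The whole list summed to 1646, 1989 and 173 CPM in malathion and 2042, 2596 and 3965 CPM in control libraries. These sums did not overlap between the groups, with 1989 CPM next to 2042 CPM at the boundary. Divided by the TMM factors described below, they were 730.4, 744 and 1253 in malathion and 856, 724 and 28212 in control libraries, and the groups overlapped. The sum of 3965 CPM was 94.1% KMT2E, KMT5A and SETD5.

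The effect of malathion on stored mRNA was the question of the study, and no writer or eraser passed its test. The fold changes come from edgeR's quasi-likelihood test on the counts with TMM scaling, two-sided, with Benjamini-Hochberg adjustment over all genes tested and a threshold of 0.05. Of the 44 members, 37 passed the filter on low counts, 27 writers and 10 erasers. KDM4B, KDM6B, KDM8, SETD9, KDM3B, SMYD1 and KDM5D did not. None of the 37 was called, and 0.0% of the 10678 genes tested were called (smallest adjusted p 0.9998). No member was called by limma-voom (0) or by the likelihood ratio test of edgeR (0). DESeq2 called 0 of the 32 members to which it gave a p, and it gave none to the other 5, which were SMYD2, KMT5A, SETD5, KDM7A and KMT2E. At an unadjusted p under 0.05, edgeR's quasi-likelihood test placed 4 members, SMYD2 among the higher ones and KMT5A, SETD5 and KDM7A among the lower ones, beside a background of 3.59% of all genes tested (0.918% higher and 2.67% lower). Limma-voom and the fit with the replicate number as a block placed 0 members there, beside 110 and 120 of the 10678 genes. DESeq2 placed 0 of its 32 there, beside 227 genes. The likelihood ratio test placed 5, the same 4 and KMT2E, beside 685 genes.

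The sizes of the 4 rested on a single replicate 3 library each. TMM factors were 0.138 and 0.141 in malathion and control replicate 3 and 2.25 to 3.59 in the other libraries, so a gene's reads in replicate 3 weigh more in these fold changes than in CPM. SMYD2 had 37, 52 and 2690 counts in malathion and 33, 53 and 1 counts in control libraries, with a log2 fold change of 8.40 ± 2.32 (SE). Without malathion replicate 3 it was 0.58. Without malathion replicate 1 or malathion replicate 2 SMYD2 passed edgeR's test (log2 fold change 9.01 and 8.98, adjusted p = 0.0148 and 0.0146). In these fits 3 of 11381 and 3 of 11165 genes tested were called. Without the filter on low counts SMYD2 also passed edgeR's test (8.39, adjusted p = 0.00159), as 1 of 60 genes called among 16852. All of these fits keep malathion replicate 3, where SMYD2 had its 2690 counts. KMT5A had 573, 1125 and 160 counts in malathion and 831, 1367 and 33379 counts in control libraries, with a log2 fold change of −7.27 ± 2.97 that stood at 0.39 without control replicate 3. SETD5 had 303, 564 and 9 counts in malathion and 569, 287 and 7722 counts in control libraries, with a log2 fold change of −7.02 ± 2.38 that stood at −0.25 without control replicate 3. KDM7A had 115, 265 and 95 counts in malathion and 139, 77 and 1462 counts in control libraries, with −4.04 ± 1.83 over the 6 libraries and 2.31 without control replicate 3. With the replicate number as a block, the log2 fold change was 1.99 for SMYD2, −1.68 for KMT5A, −1.45 for SETD5 and −0.53 for KDM7A. With library totals in place of TMM it was 4.39 for SMYD2, −4.19 for KMT5A, −3.18 for SETD5 and −1.82 for KDM7A, and with limma-voom 2.66, −4.19, −3.03 and −0.0974 for the same genes in that order. Both replicate 3 libraries are those with the fewest genes detected, and the part of that state in these values was not tested.

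KMT2E was the member whose groups did not overlap in CPM, against 0.749% of all genes tested (0.243% with malathion higher and 0.506% with malathion lower). Its log2 fold change was −4.78 ± 2.82 (edgeR adjusted p = 0.9998), and 0.15 without control replicate 3, −1.55 with the replicate block and −1.98 with library totals. In TMM-normalised CPM it stood at 172, 166 and 281 in malathion and 205, 169 and 16638 in control libraries, so the groups overlapped on that scale. There SMYD2 was the member without overlap, against 2.83% of all genes tested (1.35% with malathion higher and 1.48% with malathion lower), at 0.636, 0.701 and 460.5 in malathion and 0.498, 0.548 and 0.241 in control libraries.

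**Figure D3:**
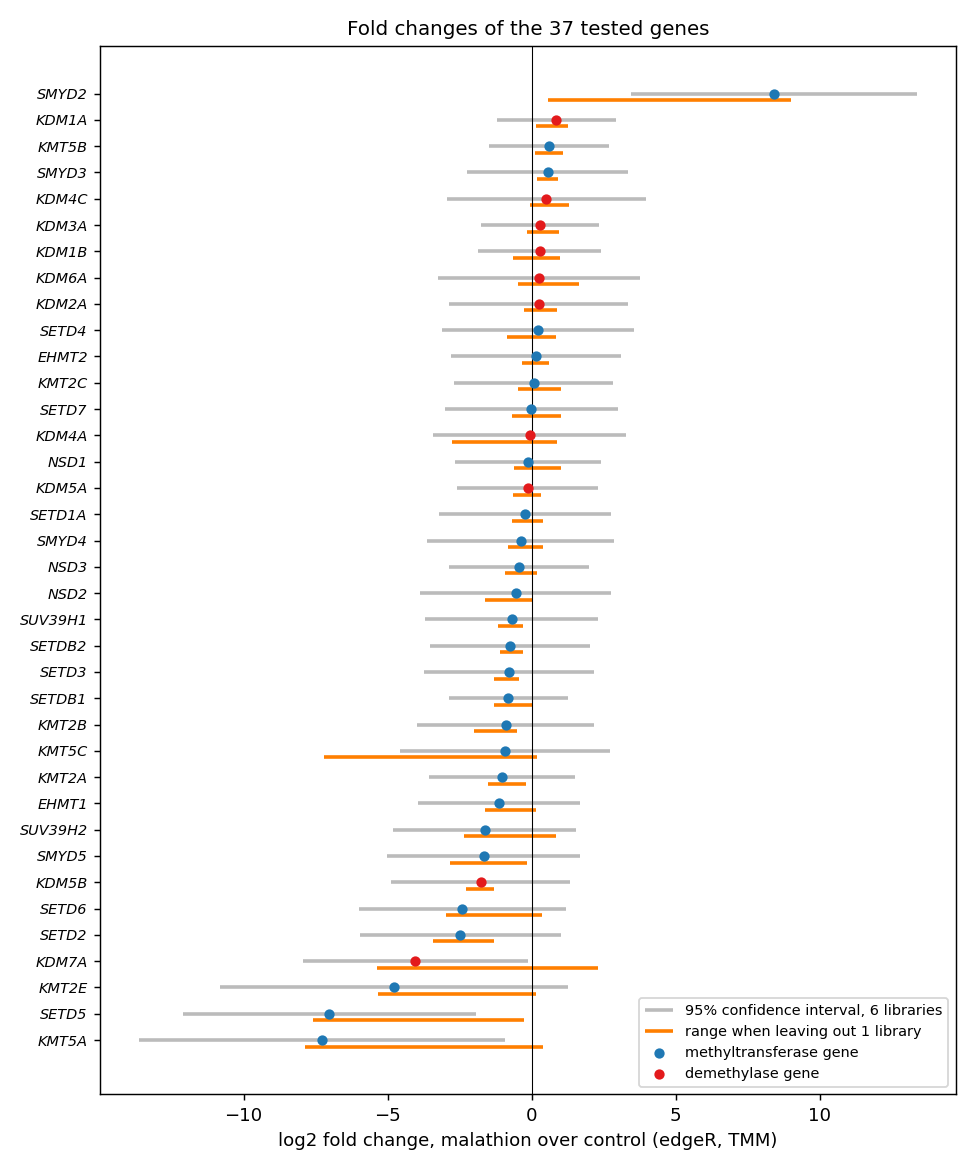
Log2 fold change of malathion over control for the 37 tested genes (points, blue for methyltransferase and red for demethylase genes), with the 95% confidence interval over 6 libraries (grey) and the range when 1 library was left out (orange). The 4 intervals that exclude 0 belong to SMYD2, KDM7A, SETD5 and KMT5A, and the orange ranges of KMT5A and KDM7A cross 0.

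Most other members had log2 fold changes smaller than their SE. The median log2 fold change was −0.44 over the 37 members, with 12 higher and 25 lower, and −0.08 over all 10678 genes, with 4974 higher and 5704 lower. Writers had a median of −0.75 (6 higher and 21 lower) and erasers of 0.25 (6 higher and 4 lower). The split of the members was not stable. Without control replicate 2 it was 20 higher and 19 lower (median 0.03, and 0.22 over all genes), and with library totals in place of TMM 7 higher and 30 lower (median −0.60, and −0.34 over all genes), with erasers at −0.18. The median SE was 1.44 on the log2 scale, so differences of several-fold were not detectable for a typical member. Among the abundant members, the log2 fold change was 0.07 ± 1.29 for KMT2C, −0.14 ± 1.14 for KDM5A, −1.62 ± 1.49 for SUV39H2, 0.59 ± 0.974 for KMT5B, −0.81 ± 0.965 for SETDB1 and 0.29 ± 0.956 for KDM3A. For the oocyte erasers it was 0.85 ± 0.966 for KDM1A and 0.28 ± 0.994 for KDM1B, with 95% intervals of −1.22 to 2.91 and −1.85 to 2.40. SETD2 had −2.47 ± 1.64, and between −3.43 and −1.31 when 1 library was left out. KDM5B had −1.76 ± 1.45, with between −2.26 and −1.30 when 1 library was left out, and its 302 counts in control replicate 2 compare with at most 40 elsewhere.

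Over the tested members, ratios of malathion to control spanned the narrowest range in the libraries of replicate number 1. In replicates 1, the ratio of malathion to control in CPM (with 1 CPM added to each) had an SD of 0.24 on the log2 scale over the 17 members at a mean of at least 10 CPM, against 0.37 over the 5331 such genes tested. Its median was −0.26 over these members and −0.08 over these genes, and it ranged from −0.75 for SETD5 to 0.15 for SMYD2. SMYD2 stood at only 1.43 CPM in malathion replicate 1 and 1.19 CPM in control replicate 1. No SD is given for replicates 2 and 3, where single libraries carried members over the limit of 10 CPM. Without control replicate 2, the means of KMT2A and NSD1 were 9.18 and 6.50 CPM. Without their highest library, a replicate 3 library each, those of SMYD2 and KDM7A were 1.30 and 4.82 CPM. All of these are in the SD of replicates 1, as is SETD1A, at 9.38 CPM without control replicate 1. Each pair is 1 library against 1, so these ratios compare libraries and carry no test. SUV39H2 stood at 195 CPM in malathion replicate 1 and 200.2 CPM in control replicate 1, KDM3A at 89.4 and 86.2 CPM, KMT5B at 92.6 and 86.7 CPM, and KDM1A at 38.8 and 42.0 CPM in the same libraries. KMT2C was further apart, at 326 CPM in malathion replicate 1 and 476 CPM in control replicate 1.

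**Figure D4:**
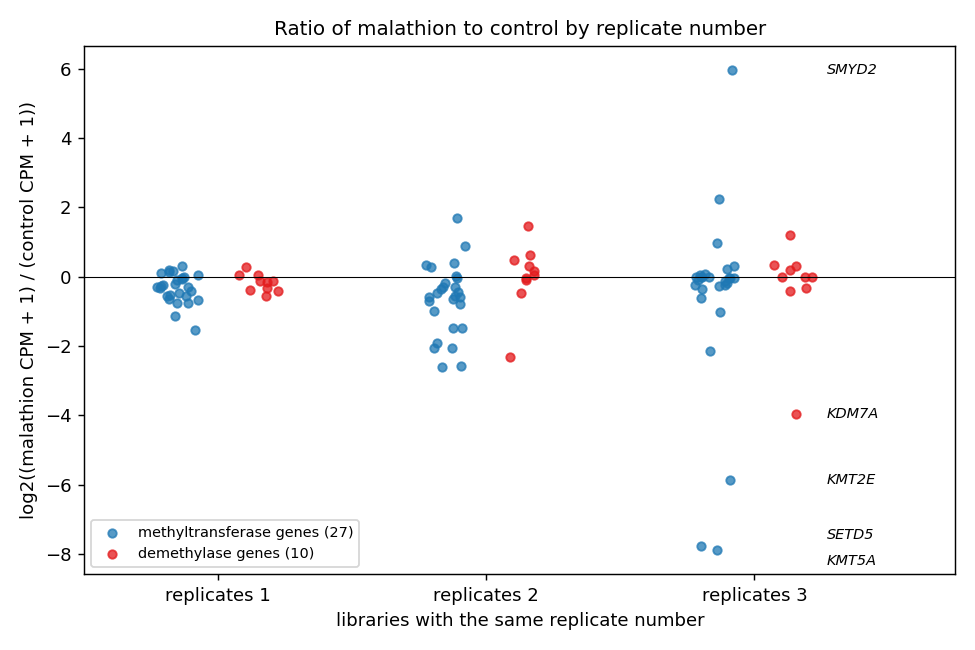
Log2 ratio of malathion to control CPM, with 1 CPM added to each, for the 37 tested genes in libraries with the same replicate number (blue, 27 methyltransferase genes; red, 10 demethylase genes). Points lie between −1.54 and 0.32 in replicates 1, between −2.62 and 1.70 in replicates 2 and between −7.89 and 5.96 in replicates 3, where SMYD2, KDM7A, KMT2E, SETD5 and KMT5A stand far from 0.

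No partner of these enzymes passed the test either. Of 47 listed genes for complex subunits and for writers and erasers under other symbols, 41 were in the files and 35 were tested. edgeR called 0 of them, 12 were higher and 23 lower, and the median log2 fold change was −0.49. At an unadjusted p under 0.05 in edgeR's quasi-likelihood test stood 1 of the 35, RCOR1, beside 3.59% of all genes tested. This gene encodes a scaffold of the KDM1A complex and, like KMT5A, was at its highest in control replicate 3. RCOR1 stood at 17.9, 24.8 and 3.40 CPM in malathion and 27.1, 21.0 and 884 CPM in control libraries. RBBP5, a core subunit of the KMT2 complexes, was by contrast high in both replicate 3 libraries, with 1306, 876 and 2853 CPM in malathion and 826, 382 and 4527 CPM in control libraries. WDR5, another core subunit, stood at 2.75, 3.28 and 0.0473 CPM in malathion and 2.34, 76.0 and 0.136 CPM in control libraries. ASH2L, also a core subunit, stood at 153, 211 and 1.39 CPM in malathion and 179, 436 and 1.39 CPM in control libraries. PRDM2, an H3K9 writer outside the symbol rule, stood at 46.6, 61.8 and 458 CPM in malathion and 62.0, 204 and 2510.4 CPM in control libraries. By group, COMPASS partners were split 1 higher to 8 lower, beside 4974 to 5704 over all genes tested. The 8 lower ones include PSIP1, at a log2 fold change of −0.000792. Within replicates 1, 2 and 3, the CPM ratios of these partners were split 4 to 5, 5 to 4 and 3 to 6. Partners of H3K9 writers were split 2 to 3 and the KDM1A complex 2 to 5. Writers and erasers under other symbols were split 6 to 5, and the HUSH complex 1 to 2.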

How the data were processed

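RNA-seq counts of 3 malathion and 3 control libraries of pig MII oocytes were analysed. Per the labels' protocols, libraries followed a modified Smart-seq2 method, which copies whole polyadenylated transcripts, marks no strand and carries no molecular identifiers. The deposited files hold raw counts per Ensembl gene, and the authors applied no normalization that the files show. STAR 2.5.3a, HTSeq 0.9.1 and DESeq2 1.20.0 are named per the submitters' processing notes. Their roles, the build, the annotation and the strand setting are not given in the sources used here, so no coordinates are printed, and antisense or overlapping genes cannot be told apart. In each file, 5 rows of reads given to no gene held 36.7% to 42.6% of reads and were left out. The name table gave symbols to 14857 of 25880 identifiers.

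CPM used the sum of gene rows. Differences were tested with edgeR 4.0.16 (R 4.3.3, TMM, quasi-likelihood, Benjamini-Hochberg over 10678 genes). Genes were filtered with filterByExpr at a minimum count of 10 and a minimum total of 15. The fit was first run on simulated counts, in which all libraries shared a mean profile apart from planted changes. That run held no outlying libraries like those of replicate 3, so it cannot show how the fit does on these data. SE is the fold change over the root of F. Intervals are at 95%. Alternatives used DESeq2 1.42.0, limma-voom 3.58.1, edgeR's likelihood ratio test (added after seeing the data), other scalings, no filter, a replicate block and left-out libraries. No label says that a replicate number marks shared material. Same-numbered libraries deviated together from their group means, at r = 0.466, 0.467 and 0.573 across genes. Deviations from a group mean cancel out, so an outlying library in both groups makes the remaining libraries deviate together as well. Libraries of different numbers were not compared, so these values cannot show that the number marks shared material. A fit with the number as a block was run beside the fit without it. The fit without the block gives the values printed unless the block is named.

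The members and lists were chosen with earlier results of these data known. Genes named in full were the 8 writers and 8 erasers of highest mean CPM, the 4 members of smallest p in each direction and 14 genes fixed by function. Of these 14, KMT2D was not matched and KDM6B was not tested. Other members, partners and markers were named after their values were seen.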

Additional observations from a re-analysis of the deposited data

How the results depend on the processing

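Of 24 named and tested members, 19 changed sign under at least 1 alternative and 16 when 1 library was left out, and none of these was called. Without control replicate 3, 10 changed sign. Leaving out 1 library gave log2 fold changes of −0.47 to 1.03 for KMT2C, −0.16 to 0.96 for KDM3A, −0.0428 to 1.29 for KDM4C, −0.46 to 1.64 for KDM6A, −0.33 to 0.62 for EHMT2, −2.78 to 0.88 for KDM4A, −0.92 to 0.20 for NSD3, −0.64 to 0.33 for KDM5A, −0.66 to 0.98 for KDM1B, −1.30 to 0.0277 for SETDB1, −5.35 to 0.15 for KMT2E, −7.85 to 0.39 for KMT5A, −2.36 to 0.83 for SUV39H2, −5.38 to 2.31 for KDM7A, −0.28 to 0.87 for KDM2A and −1.64 to 0.14 for EHMT1. With library totals in place of TMM, KMT2C stood at −0.10, KMT5B at −0.35, KDM1B at −0.13, KDM2A at −0.22, SMYD3 at −0.12, EHMT1 at 0.0494 and EHMT2 at −0.21, and the erasers' median at −0.18. That scaling moved the median of all genes to −0.34, against −0.08 with TMM. Without both replicate 3 libraries SUV39H2 stood at 0.0630, KMT5B at −0.0722, SETD5 at 0.15, KDM7A at 0.94, KDM2A at −0.0103 and EHMT1 at 0.38, and 0 genes were called. KDM5A stood at 0.0733 with limma-voom. With the replicate number as a block, KDM5A stood at 0.0240, 0 genes were called, the members' median was −0.59 and no call changed. SMYD2 stood at 1.99 there, against 8.40, and KMT5A at −1.68, against −7.27. Without the filter on low counts 60 of 16852 genes were called and 1 member, SMYD2. Leaving out 1 library gave 0 to 3 calls over the 10932 to 11662 genes tested and 0 to 1 over the members. The members' median then ranged from −0.76 to 0.03, the writers' from −0.89 to −0.21 and the erasers' from −0.16 to 0.59. Without KMT2E and KDM5A the factor of writers over erasers in control replicate 3 was 27.3, against 65.4. The cause of these changes was not tested. DESeq2 gave no adjusted p for 1119 of 10678 genes, 5 members among them (SMYD2, KMT5A, SETD5, KDM7A and KMT2E). Sums per length were not run, because no transcript length was at hand. Without identifiers for molecules, depth limits members under about 10 counts, which change with chance and amplification.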
